A study of Mus musculus with 24 samples.

Results

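The neurotrophins and their receptors were examined through the array probes of 5 genes, Bdnf, Ntf3, Ntrk2, Ntrk3 and Ngfr, out of 19751 gene symbols to which the probes of the array could be matched. The members were chosen by name, and all 5 were found, with 10 of 39429 distinct probes and 28 of 43020 spots. A symbol was given to the 26055 probes whose design accession matched a RefSeq gene, so probes of these genes designed on other sequences may be missing. Hippocampal RNA of 4 groups of mice was hybridised to single-color Agilent mouse arrays, with 6 arrays per group, and the methods give a pool of 4 mice for each array. CD F1 and MD F1 were the offspring of fathers that had received a control diet (CD) or a methyl donor-rich diet (MD, the 3MS ZM diet with added methionine, choline, betaine, folic acid, vitamin B12 and zinc) for 6 weeks until mating. CD F2 and MD F2 had these diets in the grandfathers, and came from males of CD F1 or MD F1 mated with CD F1 females. All offspring ate control diet and carried C57BL/6J and 129S6/SvEv genomes. The F1 mice were hybrids of these strains, which the methods call isogenic. The F2 mice were mixed hybrids, so that they differ genetically among themselves. The labels give an age of 4 weeks, whereas the methods describe adult mice. Each F2 array also carries a code, lh or rh, whose meaning the labels do not give, and both codes occur in CD F2 and in MD F2.

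Neurotrophins are secreted proteins that are made as longer precursors, cut to the mature form and released from neurons and other cells. Mature BDNF and NT4 act on TrkB and NT3 on TrkC, receptor tyrosine kinases that signal through the Ras-MAP kinase, PI3 kinase and phospholipase C gamma pathways, while the p75 receptor binds each of them and, with sortilin, the precursors. In the hippocampus BDNF and TrkB are known for their part in long-term potentiation and memory, and both TrkB and TrkC are also made in truncated forms that lack the kinase domain, the truncated TrkB being abundant in astrocytes.

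The ligands were represented by 1 probe each, A_55_P2036303 for Bdnf (designed on NM_007540) and A_55_P2021565 for Ntf3, the gene of NT3 (NM_001164034). Ntrk2, the gene of TrkB, had 3 probes. A_51_P393454, printed in 10 spots, and A_55_P2006792 were assigned to NM_001025074, the transcript of the full-length receptor, and A_65_P04961 to NM_008745, a transcript of the truncated form. Ntrk3, the gene of TrkC, had 4 probes, A_55_P2056533 and A_66_P118329 for the full-length transcript NM_008746 and A_52_P500274 and A_55_P2006808 for the truncated transcript NM_182809. Ngfr, the gene of p75, had 1 probe, A_52_P236448, in 10 spots (NM_033217). The accession names the transcript in the array's design. The place of a probe in it was not used here, so a probe may also have detected other transcripts of its gene.

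Each of the 28 spots was well above background on all 24 arrays. Levels are given as log2 signal, the log2 of the background-subtracted intensity after quantile normalization of the 12 arrays of a generation. A level depends on the binding of its probe, so levels are compared between arrays for 1 probe and never between probes. Over the 10 spots of one array the log2 signal of Ntrk2 A_51_P393454 had a median SD of 0.06, and that of Ngfr a median SD of 0.09. The other member probes had 1 spot each, so their spread between spots is not known. RNA came from whole tissue, so fewer cells of a type and less RNA per cell cannot be told apart.

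The arrays of each generation lay on 3 slides of their own, each with 2 CD and 2 MD arrays, and each generation was scanned on a day of its own. The median intensity of an array ranged from 251 to 318 in CD F1, 167 to 262 in MD F1, 151 to 262 in CD F2 and 148 to 262 in MD F2. The arrays MD F1 replicate 6, CD F2 replicate 6 and MD F2 replicate 3 correlated least with the others of their generation, with a mean r of 0.985, 0.977 and 0.974, and values without them are given where they matter. A sex measure, the mean of 4 Y-linked genes minus Xist on the log2 scale, was -2.03 ± 0.16 (SD, n = 6) in CD F1, -1.29 ± 0.86 in MD F1, 1.73 ± 7.26 in CD F2 and 4.28 ± 5.78 in MD F2, so that the pools of F2 differed widely in it. Markers of all hippocampal cell types tested were detected.

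The first question was whether the paternal methyl donor-rich diet changed these genes in F1. No member probe was called at a false discovery rate (FDR) under 0.1, where 0.033% of all 39429 probes were called (limma, Benjamini-Hochberg adjustment over all probes). The lowest values stood at the Trk receptors. Both probes of full-length Ntrk2 and 1 probe of each form of Ntrk3 had lower means in MD F1, by 0.14 to 0.32 on the log2 scale, at an unadjusted p under 0.05. That made 4 of 10 member probes, beside 14.4% of all probes at that p and 7.48% of all probes at that p with a lower mean in MD F1. The number was 2, both probes of full-length Ntrk2, without MD F1 replicate 6 or without MD F1 replicate 2, and it was also 2, Ntrk2 A_51_P393454 and Ntrk3 A_55_P2006808, after scaling to the 75th percentile. No member had non-overlapping groups, which 1.79% of all probes had.

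Bdnf spanned 10.17 to 10.46 in CD F1 (median 10.28), against 9.83 to 10.42 in MD F1 (median 10.21). The groups overlapped, the highest array being a control and the lowest an MD array. The difference was -0.09 ± 0.10 (SE, n = 6 per group) with a 95% interval from -0.30 to 0.12 (limma, adjusted p = 0.675; exact permutation test, p = 0.396), and it was -0.02 without MD F1 replicate 5. Ntf3 spanned 10.66 to 11.05 in CD F1 (median 10.84), against 10.73 to 11.17 in MD F1 (median 10.95). Its groups overlapped over most of their range, and the difference was 0.10 ± 0.09 with an interval from -0.10 to 0.31 (limma, adjusted p = 0.609).

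Ntf5, the gene of NT4 and another ligand of TrkB, is not among the 5 genes. Its weak signal averaged 5.65 in CD F1 (SD 0.17) against 5.90 in MD F1 (SD 0.32), with a difference of 0.25 (limma, adjusted p = 0.432).

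For the full-length transcript of Ntrk2, probe A_51_P393454 spanned 11.91 to 12.13 in CD F1 (median 12.01), against 11.53 to 12.01 in MD F1 (median 11.63). Of the 6 MD F1 arrays, 5 lay below every control, and replicate 4, at 12.01, lay among the controls. The difference was -0.32 ± 0.09 (SE), a change of -19.8% in signal, with an interval from -0.51 to -0.13 (limma, p = 0.00309, adjusted p = 0.207; two-sided exact permutation test, p = 0.00866). Probe A_55_P2006792 of the same transcript spanned 12.96 to 13.22 in CD F1 (median 13.10), against 12.61 to 13.11 in MD F1 (median 12.85). Here too 5 of the 6 MD F1 arrays were below every control, and the exception was another array, replicate 6. The difference was -0.26 ± 0.09, a change of -16.3% in signal (limma, p = 0.0107, adjusted p = 0.252; exact permutation test, p = 0.0130). The mean of MD F1 was below that of CD F1 on 3 of 3 slides for both probes, by 0.17 to 0.42 and by 0.21 to 0.30. How often all probes kept 1 sign on 3 of 3 slides was not counted, so no share stands beside such agreement here or below. Neither probe passed the FDR threshold.

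The probe of the truncated Ntrk2 transcript, A_65_P04961, did not share this difference. It spanned 11.50 to 11.90 in CD F1 (median 11.65), against 11.66 to 11.97 in MD F1 (median 11.77), and the difference was 0.10 ± 0.08 with an interval from -0.08 to 0.28 (limma, adjusted p = 0.578). Its mean was higher in MD F1 on 2 of 3 slides. This interval lay wholly above that of A_51_P393454 and touched only the upper end of that of A_55_P2006792, from -0.44 to -0.07. Whether the probes differed from each other in their response was not tested.

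The 4 probes of Ntrk3 did not move as one. A_55_P2006808, of the truncated transcript, spanned 12.78 to 13.25 in CD F1 (median 13.04), against 12.30 to 13.01 in MD F1 (median 12.71), with a difference of -0.32 ± 0.13 (limma, p = 0.0315, adjusted p = 0.311; exact permutation test, p = 0.0411). The groups overlapped, and the lowest array was MD F1 replicate 6, without which the difference was -0.23. With the sex measure as a covariate it was -0.11 (limma, adjusted p = 0.765). The second probe of that transcript, A_52_P500274, had a difference of 0.11 ± 0.07 in the other direction (limma, adjusted p = 0.481), with ranges from 12.36 to 12.59 in CD F1 and from 12.42 to 12.75 in MD F1. It was higher in MD F1 on 3 of 3 slides, whereas A_55_P2006808 was lower on 3 of 3.

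The full-length transcript of Ntrk3 gave a similar split. A_55_P2056533 spanned 11.62 to 11.82 in CD F1 (median 11.69), against 11.47 to 11.69 in MD F1 (median 11.52), with a difference of -0.14 ± 0.06 (limma, p = 0.0404, adjusted p = 0.329; exact permutation test, p = 0.0238). Its mean was lower in MD F1 on 3 of 3 slides, though by only 0.01 on 1 of them. A_66_P118329 had medians of 14.33 in CD F1 and 14.41 in MD F1 and a difference of 0.02 ± 0.08 (limma, adjusted p = 0.935). One array, MD F1 replicate 6 at 14.05, stood below the other 5 of its group, which lay between 14.40 and 14.44, and without it the difference was 0.08.

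Ngfr spanned 7.19 to 7.70 in CD F1 (median 7.32), against 7.31 to 7.89 in MD F1 (median 7.58). The difference was 0.21 ± 0.11 with an interval from -0.03 to 0.45 (limma, p = 0.0757, adjusted p = 0.387; exact permutation test, p = 0.0887), and it was positive on 2 of 3 slides. Of the 5 markers of basal forebrain cholinergic neurons, which are rich in p75, 3 were above background in every group. The mean level over all 5, the weaker ones included, was 5.66 to 6.66 in CD F1 and 5.57 to 6.45 in MD F1.

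**Figure D1:**
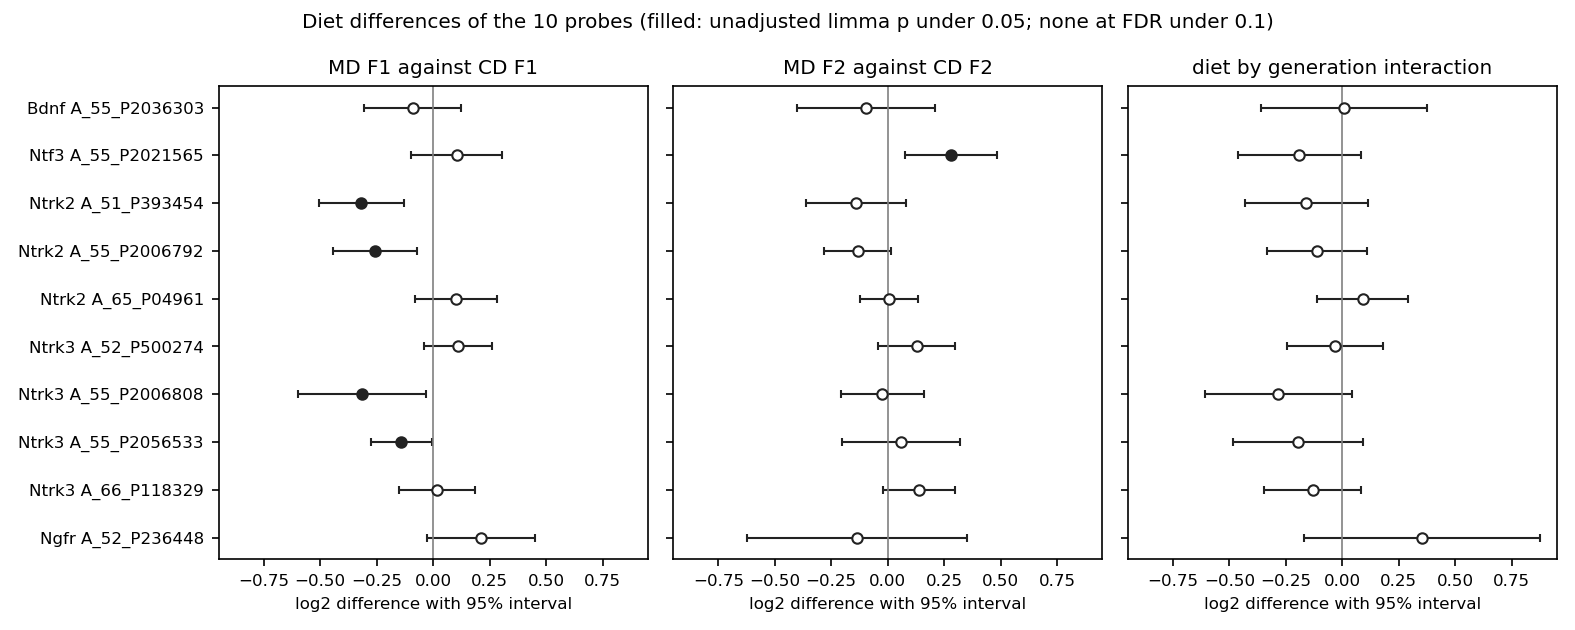
Log2 difference between the diets for each member probe in F1 (left), in F2 (middle) and the F1 difference minus the F2 difference (right), with 95% intervals from limma on 6 arrays per group. Filled points have an unadjusted p under 0.05: 4 probes in F1, all below 0, 1 probe in F2, above 0, and none in the interaction; no point passed FDR under 0.1.

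The scaling of the arrays set the level against which these differences are read. Without scaling between arrays all probes were lower in MD F1 by a median of 0.28, the members by a median of 0.27, and 4 of 10 member probes were called, beside 20.2% of all probes. The 4 were those named above, at -0.37 to -0.56, while Ntf3, the truncated Ntrk2 probe, Ntrk3 A_52_P500274 and A_66_P118329, and Ngfr turned from above 0 to below 0. Relative to the median of all probes those 5 remained above it, by 0.10 to 0.17, and the 4 lower probes below it, by 0.09 to 0.28. With array weights 1 member probe, Ntrk2 A_55_P2006792, was called at -0.34 (limma, adjusted p = 0.0795), beside 1.37% of all probes.

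Markers of other cells were also compared between these groups. Of all probes 14.4% had an unadjusted p under 0.05, 7.48% with a lower mean in MD F1, and groups did not overlap for 1.79%. Of the 6 astrocyte markers 3 had an unadjusted p under 0.05, each lower in MD F1, and 0 passed the FDR threshold. Their mean level over the list was 13.09 to 13.27 in CD F1 and 12.67 to 13.05 in MD F1, so the groups did not overlap. The largest difference was that of Slc1a2, the main astrocytic glutamate transporter, at -0.62 (limma, adjusted p = 0.221). The 5 markers of thalamus, a neighbour of the hippocampus, had a mean level of 8.61 to 8.70 in CD F1 and 8.12 to 8.54 in MD F1, with 2 of 5 lower at that p, and the 4 ependymal markers were at 9.70 to 9.95 in CD F1 and 10.04 to 10.46 in MD F1, with 4 of 4 higher. Of the other lists, 1 of 5 CA1, 1 of 5 oligodendrocyte, 1 of 5 microglial and 1 of 6 striatal markers were lower and 1 of 4 CA3 markers higher at that p, and the lists of dentate granule cells, CA2, interneurons, oligodendrocyte precursors, endothelium, fibroblasts, cholinergic neurons and choroid plexus had none. The part of these markers in the differences of Ntrk2 and Ntrk3 was not tested.

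The same genes were then compared between MD F2 and CD F2, which asks whether the diet of the grandfathers left a difference. No member probe was called, as was none of 39423 probes (0% at FDR under 0.1 in limma, 2209 probes at an unadjusted p under 0.05). Only Ntf3 had an unadjusted p under 0.05, 1 of 10 member probes beside 5.6% of all probes, and 3.22% for higher means alone. The number was 3 without CD F2 replicate 2, with array weights or with a trended variance prior, 2 without CD F2 replicate 5, with the sex measure or after scaling to the 75th percentile, and 0 without scaling. Again no member had non-overlapping groups (0.365% of all probes).

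Ntf3 spanned 10.18 to 10.58 in CD F2 (median 10.36), against 10.44 to 10.76 in MD F2 (median 10.70). The lowest MD F2 array was replicate 3, one of the 3 arrays that stood apart, and 2 arrays of each group lay in the shared stretch. The difference was 0.28 ± 0.09 (SE, n = 6 per group), or 21.4% more signal, with an interval from 0.08 to 0.48 (limma, p = 0.0116, adjusted p = 0.890; exact permutation test, p = 0.0108). Within the 3 slides it was 0.26, 0.28 and 0.30. It kept its sign under each alternative that was tried, from 0.22 to 0.32, and passed the FDR threshold under none of them.

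The groups of Bdnf overlapped over most of their range. Bdnf ranged from 10.33 to 10.98 in CD F2 and from 10.13 to 10.77 in MD F2, a difference of -0.10 ± 0.14 (limma, adjusted p = 0.965) that was -0.02 without MD F2 replicate 3. Its mean was lower in MD F2 on 3 of 3 slides, with differences from -0.16 to -0.002. Ntf5 was 6.10 ± 0.51 (SD, n = 6) in CD F2 and 5.64 ± 0.30 in MD F2, with a difference of -0.46 (limma, adjusted p = 0.902).

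Both full-length Ntrk2 probes had lower means in MD F2, as in F1, by smaller amounts. A_51_P393454 ranged from 12.60 to 12.96 in CD F2 and from 12.36 to 12.85 in MD F2 (difference -0.14 ± 0.10; limma, adjusted p = 0.923). A_55_P2006792 ranged from 13.67 to 13.99 in CD F2 and from 13.56 to 13.71 in MD F2 (difference -0.13 ± 0.07; limma, p = 0.0736, adjusted p = 0.905; exact permutation test, p = 0.0130). The exact p of A_55_P2006792 was 0.245 after scaling to the 75th percentile, 0.130 with normexp on the median signal and 0.385 without scaling. Both probes were lower on 3 of 3 slides, by 0.02 to 0.22 and 0.04 to 0.23. The truncated probe A_65_P04961 differed by 0.01 ± 0.06, with an interval from -0.12 to 0.13 that leaves out changes as large as those of the full-length probes in F1.

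Of the Ntrk3 probes, A_66_P118329 ranged from 13.66 to 13.99 in CD F2 and from 13.88 to 14.07 in MD F2, a difference of 0.14 ± 0.07 (limma, p = 0.0808, adjusted p = 0.912; exact permutation test, p = 0.0433) that was positive on 3 of 3 slides. The other 3 probes differed by -0.02 to 0.13, each with an interval that held 0. Ngfr spread from 6.62 to 7.77 in CD F2 and from 6.63 to 7.49 in MD F2, and its difference of -0.14, or -0.02 without CD F2 replicate 2, had an interval from -0.62 to 0.35, so a change of that size in either direction was not detectable with these arrays. Its residual SD in F2, 0.41, was higher than that of 89.9% of the probes detected in all 12 arrays, and that of the truncated Ntrk2 probe, 0.07, was higher than that of 1.28%.

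By the exact permutation test alone, 4 of 10 member probes had p under 0.05 in F1, beside 16.2% of all probes, and 3 of 10 in F2, beside 6.42%. The F2 number was 1 with normexp on the median signal, which was Ntf3, and 0 without scaling, and the F1 number was 3 and 5. The smallest p this test can give with 6 arrays against 6 is 0.00216.

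**Figure D2:**
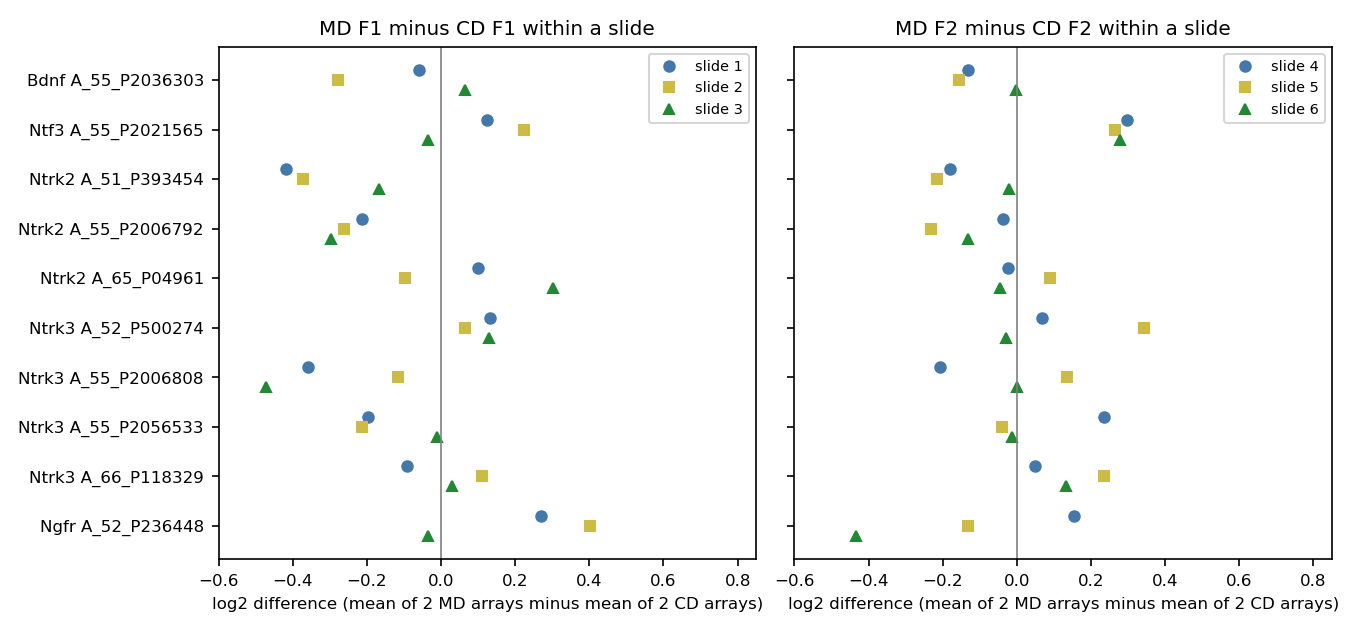
Difference between the mean of the MD arrays and the mean of the CD arrays on the same slide, on the log2 scale, for each member probe in F1 (left) and F2 (right). In F1 both full-length Ntrk2 probes, A_51_P393454 and A_55_P2006792, lie below 0 on all 3 slides, and in F2 Ntf3 lies between 0.26 and 0.30 on all 3.

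A test of whether the diet differences changed between the generations gave no call among the members, beside 0.0127% of all probes, and 0 of 10 at an unadjusted p under 0.05 (8.29% of all probes). The largest member difference of differences (F1 minus F2) was that of Ngfr, 0.35 with an interval from -0.17 to 0.87 (limma, adjusted p = 0.752). The smallest p was that of Ntrk3 A_55_P2006808, with -0.28 and an interval from -0.61 to 0.04 (limma, adjusted p = 0.657). For the full-length Ntrk2 probes the value was -0.16 and -0.11, with intervals from -0.43 to 0.11 and from -0.33 to 0.11, and for Ntf3 it was -0.19, from -0.46 to 0.08. Thus no member was shown to respond differently in F1 and F2. Outside the 5 genes Ntf5 had a difference of 0.70 (limma, adjusted p = 0.494).

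CD F2 was then compared with CD F1. With all 24 arrays normalized together, 7 of 10 member probes were called between CD F2 and CD F1 at FDR under 0.1, beside 60.2% of all probes, and 6 of the 7 were higher in CD F2 (28.6% of all probes) and 1 was lower (31.6%). Without scaling between arrays, where all probes were lower in CD F2 by a median of 0.50, 6 member probes were called, of which 2 were higher, the full-length Ntrk2 probes, and 4 lower, Ntf3 and the Ntrk3 probes other than A_55_P2056533. Groups did not overlap for 5 of 10 probes, beside 39.1% of all probes. Generation, slides and scan day cannot be told apart here, and only the F2 arrays carry the code lh or rh. The sex measure differed as well, at -2.03 ± 0.16 (SD, n = 6) in CD F1 and 1.73 ± 7.26 in CD F2, and its part in this comparison was not tested.

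Ntrk2 had the widest gaps among the members. A_51_P393454 lay between 11.70 and 11.91 in CD F1 and between 12.85 and 13.22 in CD F2, and rose by 1.27 ± 0.09 (SE; limma, adjusted p = 1.89e-10). A_55_P2006792 lay between 12.71 and 12.97 in CD F1 and between 13.97 and 14.30 in CD F2, and rose by 1.25 ± 0.08 (limma, adjusted p = 1.4e-11). Both full-length probes thus gave about the same step, 2.40-fold and 2.37-fold, and both were still called without scaling, at 0.68 and 0.58. The truncated probe A_65_P04961 rose by 0.48 ± 0.07 (limma, adjusted p = 2.84e-06), but its difference was -0.04 without scaling, which is 0.46 above the median of all probes. The order of the groups was MD F1, CD F1, MD F2 and CD F2 from low to high for both full-length probes, at 11.50, 11.80, 12.92 and 13.07 for A_51_P393454, and the diet groups next to each other in this order were not called in either generation.

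Bdnf also rose, from 10.15 ± 0.10 (SD, n = 6) in CD F1 to 10.78 ± 0.25 in CD F2, by 0.63 ± 0.13 (SE; limma, adjusted p = 0.00016), and by 0.22 without scaling, where the call was lost. The groups of Bdnf did not overlap, at 10.02 to 10.32 and 10.48 to 11.16. Ntf3 was at 10.70 ± 0.15 and 10.52 ± 0.18, a difference of -0.17 that was not called (limma, adjusted p = 0.124), but was -0.58 and called without scaling (limma, adjusted p = 0.0108). Ntf5, for comparison, rose by 0.85 ± 0.19 (limma, adjusted p = 0.00063).

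Between the generations the probes of Ntrk3 again went separate ways. A_55_P2056533 rose by 0.62 ± 0.10 (limma, adjusted p = 9.78e-06), from 11.43 to 11.62 in CD F1 to 11.69 to 12.47 in CD F2, and by 0.09 without scaling, where the call was lost. A_55_P2006808 fell by 0.32 on the log2 scale (SE 0.11; limma, adjusted p = 0.0187), and by 0.92 without scaling. A_52_P500274 rose by 0.21 ± 0.07 (limma, adjusted p = 0.0181), but its difference was 0.08 and not called after scaling to the 75th percentile and -0.37 and called without scaling. A_66_P118329, at 14.04 ± 0.08 (SD, n = 6) and 14.17 ± 0.12, and Ngfr, at 7.22 ± 0.20 and 7.35 ± 0.44, were not called (limma, adjusted p = 0.143 and 0.552). Without scaling both turned below 0, and A_66_P118329 was called as lower at -0.58, as it was after scaling to the 75th percentile at -0.14.

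**Figure D3:**
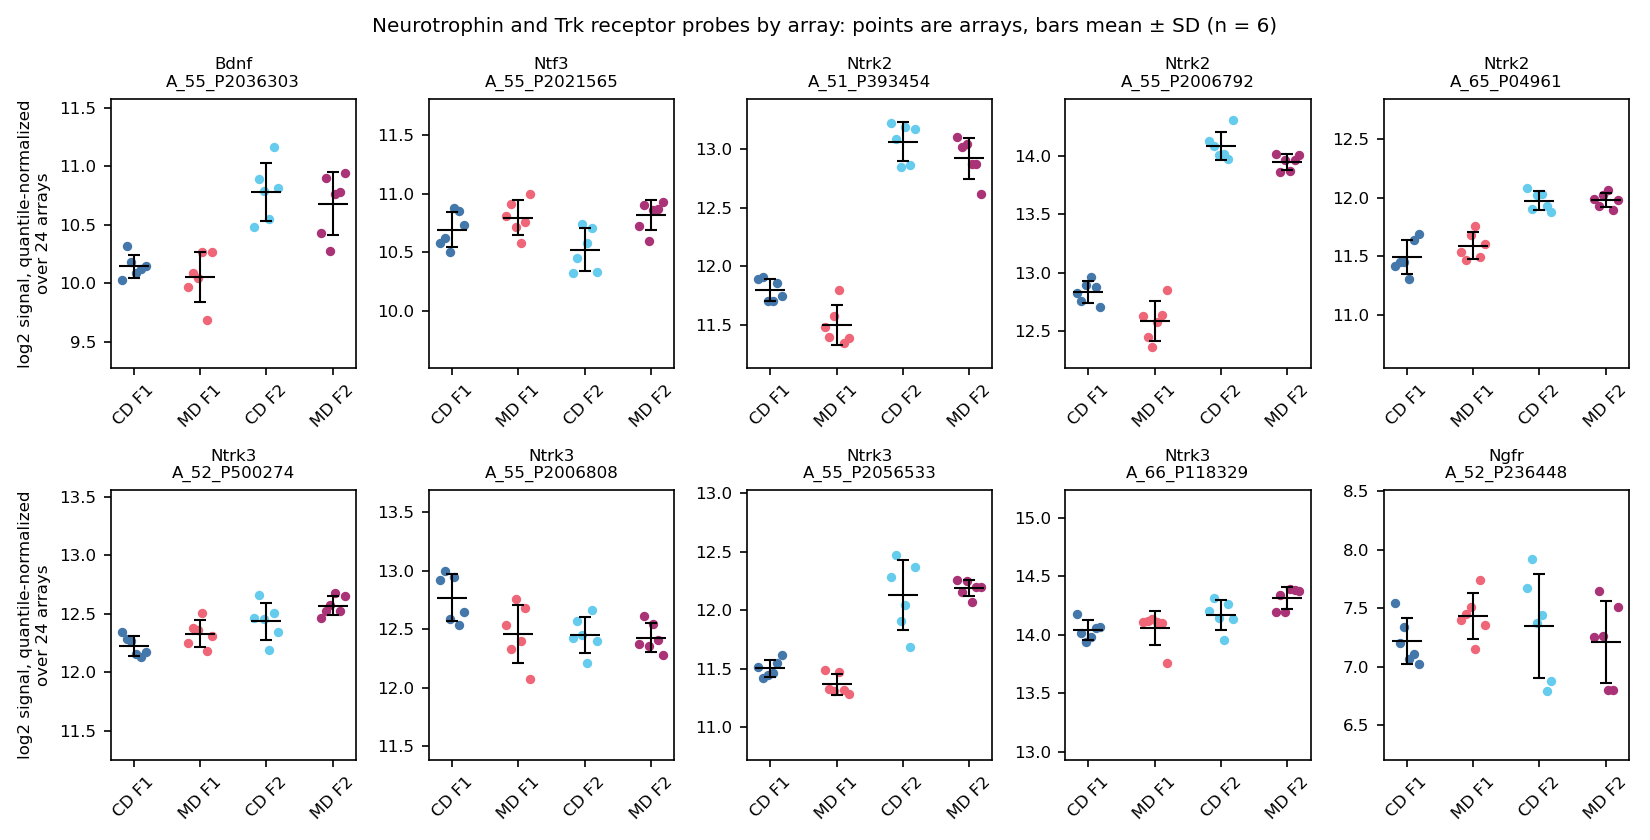
Log2 signal of each member probe on each of the 24 arrays, quantile-normalized together, by group, with the mean and SD of 6 arrays; every panel spans the same height of 2.3 log2 units, and levels of different panels are not comparable. The full-length Ntrk2 probes step up by 1.27 and 1.25 from CD F1 to CD F2, more than the diet differences of these probes, and this step goes with slides and scan day.

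Probes of one gene agreed little from array to array. After the group means were taken off, the 3 pairs of Ntrk2 probes had a Pearson r over the 24 arrays of -0.05, 0.34 and -0.29, the first being that of both full-length probes. The 6 pairs of Ntrk3 probes ran from -0.16 to 0.61. Among them A_66_P118329 followed A_55_P2006808 (0.61) and A_52_P500274 (0.50), whereas both full-length probes of Ntrk3 were at 0.14. Without the 3 arrays that stood apart these values were 0.41, 0.64 and 0.15, so the order of the first 2 turned. MD F1 replicate 6, one of those arrays, had the largest deviation of both A_66_P118329 (-0.31) and A_55_P2006808 (-0.40). The median over these 9 pairs was 0.14 and, without the 3 arrays that stood apart, 0.15. For comparison, 3571 genes had more than 1 probe well above background on all 24 arrays. The brightest such pair of each had a median r of 0.34 with quartiles of 0.01 and 0.63. The brightest pair of Ntrk2 was at -0.05, below the lower quartile, and that of Ntrk3 at 0.61, near the upper quartile. Without the 3 arrays that stood apart they were at -0.05 and 0.41, beside a median of 0.33 and quartiles of 0.02 and 0.62. All probes of an array share its RNA pool, labelling and hybridisation.

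**Figure D4:**
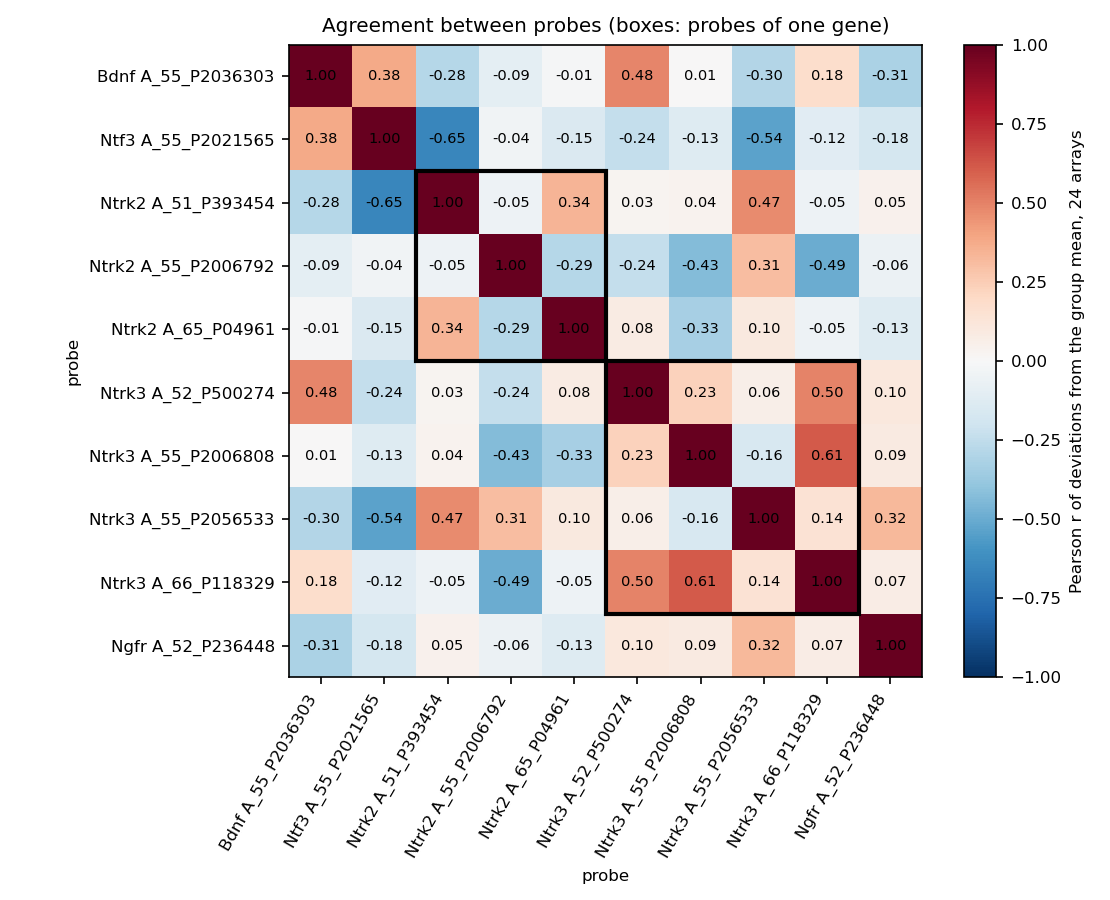
Pearson r between the member probes of their deviations from the group mean over 24 arrays, with boxes around the probes of Ntrk2 and of Ntrk3. Within the boxes r runs from -0.29 to 0.61, and the lowest value of all is -0.65, between Ntf3 and Ntrk2 A_51_P393454.

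Between genes, the strongest relation over 24 arrays was that of Ntf3 with Ntrk2 A_51_P393454, with r = -0.65. It was -0.61 over the 21 arrays without those that stood apart. Ntf3 and the other full-length Ntrk2 probe were at -0.04, so the relation did not extend to both probes of that transcript. Bdnf and the probes of its receptor gene Ntrk2 were at -0.28, -0.09 and -0.01. With Ntrk3 A_52_P500274 Bdnf was at 0.48 over 24 arrays and at 0.61 over 21, there as strong as Ntf3 with Ntrk2 A_51_P393454.

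The genes most alike each member from array to array were sought among 18225 probes of 13958 genes. For Bdnf they were Hnrnpa3 (r = 0.870), Tbc1d32 and Smarcad1, and for Ntf3 they were Polr1d (r = 0.900), Gemin8 and Sdhaf4. For the brightest Ntrk2 probe, A_55_P2006792, they were Mrps26 (r = 0.847), 1810010H24Rik and Slc25a12, and for Ntrk3 A_66_P118329 they were Abcc5 (r = 0.899), Atxn2l and Gm13271. For Ngfr they were Tnxb (r = 0.861), Ubxn11 and Rprd1b. Without the 3 arrays that stood apart, Polr1d and Sdhaf4 kept a place among the 3 highest for Ntf3, Mrps26 for Ntrk2 and Tnxb for Ngfr. For Bdnf and Ntrk3 none of the 3 kept one. A lost place did not mean a low r, as the 3 genes of Bdnf were then at 0.83 to 0.85. Those of Ntrk3 were at 0.83 (Abcc5), 0.82 (Atxn2l) and 0.73 (Gm13271), while Mrps26, which kept its place, was at 0.72. The remaining arrays are part of the same set, so retention is partly built in, and each r is a maximum over many candidates.

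Of the other genes around the family, 124 were listed by role, 123 were on the array and 120 were well above background on an array of each group. None was called in F1, F2 or the interaction at FDR under 0.1 in limma. At an unadjusted p under 0.05 there were 8 higher and 9 lower in F1 (14.2%, beside 14.4% of all probes) and 4 higher and 8 lower in F2 (10%, beside 5.6%), and the median difference was -0.03 in F1 and -0.02 in F2. The share in F1 was thus that of the array as a whole.

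By role, the values with the smallest p were these. Among adaptors and signalling enzymes of the Trk receptors (45 genes, 3 higher and 4 lower in F1 at that p), Plcg1, the phospholipase C gamma that binds active Trk receptors, was 7.45 in CD F1 and 6.98 in MD F1 (difference -0.47 ± 0.12; limma, adjusted p = 0.203), while its other probe differed by -0.01. Rapgef1 differed by -0.28. In F2 Camk2a differed by 0.27 and Crkl by -0.31. The 2 probes of Camk2a gave -0.06 (the brighter one, used here) and -0.59 in F1. Among partners of p75 (15 genes on the array, 1 higher and 2 lower in F1), Magi2 differed by -0.32 and Maged1, which binds the p75 intracellular domain, by 0.20 in F1, and Bex3 by 0.24 and Ntn1 by -0.11 in F2. Among receptors of the sortilin family (5 genes), Sorcs1 differed by -0.35 and Sorcs2 by -0.09 in F1, where their other probes gave -0.06 and -0.37, and Sorcs3 by 0.37 ± 0.08 in F2 (limma, adjusted p = 0.890).

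Among proteases and other proteins that process the precursors (11 of 13 genes above background), Pcsk5 and Pcsk7 differed by 0.13 and 0.11 in F1, and Plat, the tissue plasminogen activator, by -0.20 and Pcsk6 by -0.19 in F2. Among regulators of Bdnf transcription (19 genes), Bhlhe40 differed by 0.24 and Mef2c by -0.27 in F1, and Crebbp by -0.21 and Srf by -0.19 in F2. Among genes induced by activity or BDNF (24 genes, 1 higher and 4 lower in F2 at that p), Per1 differed by 0.18 and Dusp1 by -0.44 in F1. Fos, an immediate early gene, was 8.63 in CD F2 and 7.91 in MD F2 (difference -0.72 ± 0.12; limma, adjusted p = 0.890), and Egr2 differed by -0.65. The choroid plexus list had a median difference of -2.31 in F2 over 6 genes, of which 0 had an unadjusted p under 0.05, and ranges of its mean level from 7.81 to 13.20 in CD F2 and from 7.73 to 12.47 in MD F2. In F2, 3 of 4 ependymal, 2 of 6 fibroblast and 1 of 5 microglial markers were also lower at an unadjusted p under 0.05. The CA3, thalamus and striatum lists had 1 marker higher and 1 lower each, and the other lists, astrocytes included, had none. The share over all probes was 5.6%. Ccdc153 of the ependymal list was called in the interaction. The part of these markers in the F2 values was not tested.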

How the data were processed

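Hippocampal RNA of 24 pools was measured on single-color Agilent Mouse GE 4x44K v2 arrays. The deposited files hold, per spot, the intensity that the authors obtained with Agilent Feature Extraction (10.7.3.1 per the file headers), background-subtracted and linear, with no scaling between arrays. The series table of the authors' quantile-normalized intensities was an alternative only. Spots marked non-uniform or as population outliers were left out, log2 intensities of the 43020 non-control spots were quantile-normalized within a generation (all 24 arrays for the interaction and the generations), and spots of a probe were averaged. RefSeq accessions of the design gave symbols to 26055 of 39429 probes. Groups followed the labels. limma 3.58.1 (R 4.3.3) then fitted the group means, requiring at least 2 arrays per group and probe, Benjamini-Hochberg adjustment over all probes and calls at FDR under 0.1, the study's threshold. Single probes were also compared by two-sided exact permutation over 924 regroupings. The labels do not say that pools came from separate litters, so p-values measure the spread between pools. Nor do they say that F2 pools coded lh and rh came from separate mice. The fit was tested on simulated data. Listed genes were represented by their brightest probe. Named genes were all probes of the 5 members, Ntf5, the 2 smallest p per role list and generation, and the 3 genes most correlated with each member. Members and lists were chosen with earlier results of these data known. Marker lists covered dentate granule cells, CA1, CA2 and CA3 pyramidal cells, interneurons, astrocytes, oligodendrocytes and their precursors, microglia, endothelium, fibroblasts, basal forebrain cholinergic neurons, choroid plexus, ependyma, thalamus and striatum. Alternatives changed the scaling, background correction, spot and probe filters, covariates, blocks, weights, variance prior, threshold and arrays used. Some genes of the family are not reported here.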

Additional observations from a re-analysis of the deposited data

Results flagged for a closer look

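Of the 40 groups of 6 arrays examined for a single distant value (10 member probes in 4 groups), 1 held one. Ntrk3 probe A_66_P118329 had a log2 signal of 14.05 on MD F1 replicate 6, while the other 5 MD F1 arrays lay between 14.40 and 14.44, so that the gap took 0.909 of the whole range of the group, above Dixon's 95% critical value for 6 arrays. Chance alone puts about 1 group in 20 above that value. The same array correlated least with the other F1 arrays (mean r 0.985), and without it the difference of this probe between MD F1 and CD F1 was 0.08 in place of 0.02.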

How the results depend on the processing

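No member probe was called in F2 or in the interaction under any of the alternatives run, and between 6 and 8 of 10 were called between CD F2 and CD F1, against 7 in the reported fit. Without scaling the 6 included Ntf3 and Ntrk3 A_66_P118329 as lower, Ntrk3 A_52_P500274 turned to lower, and Bdnf, Ntrk2 A_65_P04961 and Ntrk3 A_55_P2056533 were not called. In F1 the number called was 0, except for 4 without scaling between arrays and 1 with array weights. The other genes around the family had 0 calls in F1 and F2 and 20 without scaling. With single arrays left out, the calls were 0 in F1, F2 and the interaction and 7 to 8 between the generations. Normexp on the median signal, chosen after seeing the data in place of the mean signal, lowered the number of exact permutation p under 0.05 over F1 and F2 from 7 to 4.

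Directions turned mainly where the main value was near 0 or where scaling was left out. Without scaling the F1 difference was -0.15 for Ntf3, -0.14 for Ntrk2 A_65_P04961, -0.11 for Ntrk3 A_52_P500274, -0.18 for Ntrk3 A_66_P118329 and -0.13 for Ngfr, the F2 difference of Ntrk2 A_65_P04961 was -0.0200, and the interaction was -0.21 for Bdnf and -0.12 for Ntrk2 A_65_P04961. Between CD F2 and CD F1 it then was -0.0438 for Ntrk2 A_65_P04961, -0.37 for Ntrk3 A_52_P500274, -0.58 for Ntrk3 A_66_P118329 and -0.31 for Ngfr, and scaling to the 75th percentile gave -0.14 for Ntrk3 A_66_P118329. In F2 that scaling gave 0.00289 for Ntrk3 A_55_P2006808, and array weights gave 0.00376 for Bdnf, -0.00790 for Ntrk2 A_65_P04961 and 0.0153 for Ntrk3 A_55_P2006808. Without the 2 F2 arrays that stood apart Ntrk2 A_65_P04961 was -0.0206 in F2, and without all 3 such arrays the interaction of Bdnf was -0.12. With single arrays left out, the F1 difference of Ntrk3 A_66_P118329 ran from -0.00586 to 0.0785, and in F2 that of Ntrk2 A_65_P04961 ran from -0.0119 to 0.0267, that of Ntrk3 A_55_P2006808 from -0.0700 to 0.0164 and that of Ntrk3 A_55_P2056533 from -0.0239 to 0.125. The interaction of Bdnf then ran from -0.0724 to 0.0810 and that of Ntrk3 A_52_P500274 from -0.0750 to 0.0191. The cause was not tested. The adjusted p of the F1 difference of Ntrk2 ran from 0.0672 to 0.389 for A_51_P393454 and from 0.0626 to 0.411 for A_55_P2006792, and that of Ntf3 in F2 from 0.292 to 1.

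Arrays with the same replicate number did not deviate together (r from -0.053 to 0.206 in F1 and from -0.174 to 0.194 in F2), so the numbers were taken as names only. With the replicate number as a block, 0 member probes were called in F1, 0 in F2, 0 in the interaction and 7 between the generations, 2 member probes, both of full-length Ntrk2, had an unadjusted p under 0.05 in F1 against 4 without the block, and the calls over all probes in F1 went from 13 to 0 and in the interaction from 5 to 0. Over all probes the F1 calls numbered 7952 without scaling, 540 with array weights, 73 in the fit of all 24 arrays, 44 without dim probes, 2 with a trended variance prior, 4 with scaling to the 75th percentile and 5 with normexp on the median signal. They also numbered 152 without MD F1 replicate 6, 34 without MD F1 replicate 1, 5 without CD F1 replicate 6 and 0 without any other single array, as well as with the slide block, with the sex measure and at FDR under 0.05.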
